A study of Danio rerio with 6 samples.

Results

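The citrate (TCA) cycle enzymes described here are 9 zebrafish genes, cs, idh3a, idh3b, idh3g, ogdha, suclg1, suclg2, fh and mdh2, chosen by name. The rule that named them used no measured value, but earlier results of these data were known when they were chosen. Their probes were found through the RefSeq accession that the array files give for each probe. Of the 43603 probes on the array, 20 matched, and they read 7 of the 9 genes. No probe matched idh3g or suclg2, which were not analysed here. Each of the 7 genes was well above background on all 6 arrays in both channels with its brightest probe, so all 7 were among the 15774 genes tested. The filter on dim probes asked for a signal well above background in the trained or in the control channel of all 6 arrays, and 19 of the 20 probes met it.

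The series compared caudal fins of swim-trained and of untrained (control) wildtype zebrafish larvae at 10 days post fertilisation. The trained larvae swam for 3 h a day between 5 and 10 days post fertilisation. RNA came from pools of 15 larvae, namely trained pools T2 and T3 and control pools C2 and C3, so no value belongs to a single animal. Each trained pool shared 2-colour arrays with the control pool of its number: T2 with C2 (pool pair 2) on 4 arrays, 2 for each dye orientation, and T3 with C3 (pool pair 3) on 2 arrays, 1 for each orientation. The arrays lay on 2 slides, each with both orientations of pool pair 2. In pool pair 3 trained RNA was in Cy5 on slide 1 and in Cy3 on slide 2. A gap between orientations in pool pair 3 therefore cannot be told apart from a gap between slides. Arrays of the same RNA count as 1 replicate, so n is 2 pool pairs. The labels do not say whether pools of 1 number share a clutch or a day. The p-values measure only the spread between these pool pairs, with each gene's spread drawn towards that of all genes.

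The TCA cycle runs in the mitochondrial matrix. It oxidises the acetyl group of acetyl-CoA to carbon dioxide and hands the electrons, as NADH and reduced ubiquinone, to the respiratory chain. Muscle depends on it for sustained contraction, and growing tissue also draws on its intermediates for synthesis. Because whole fins were measured, fewer cells of a type and less RNA per cell cannot be told apart. Of the marker genes listed, 13 of 15 for epidermis, 16 of 16 for fast muscle, 10 of 10 for slow muscle and 10 of 10 for notochord met the filter on dim probes. The other 2 epidermal genes matched no probe. Of 10 genes listed for red blood cells, 7 matched a probe and 4 met the filter.

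Values are log2 ratios of trained over control, with the standard error (SE) that limma gives after drawing each gene's spread towards that of all genes. Precision is limited by having 2 pool pairs. Between 54.3% and 81.2% of probes were well above background, depending on array and channel. The SD of log2 ratios across all genes was 0.15 in pool pair 2 and 0.53 in pool pair 3, so an equal ratio stands further out in pair 2. With limma on the 2 pair values, 0 of 15774 genes passed a Benjamini-Hochberg adjusted p under 0.05, which is 0% of the genes tested. At an unadjusted p under 0.05, 342 genes lay higher (2.17%) and 286 lower (1.81%), and 0 of the 7 enzymes were among them. When the 6 arrays were fitted singly and the pool pair entered as a random block, 9 genes passed, 0 of them TCA cycle enzymes.

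The 7 enzymes did not move as a group. By the brightest probe of each gene, cs, idh3a and fh had ratios above 0 on all 6 arrays in trained fins. By the same measure suclg1 and ogdha had ratios below 0 on all 6 arrays, with values as near 0 as -0.02 and -0.01. The remaining genes, idh3b and mdh2, lay below 0 in pool pair 3 and had arrays on both sides of 0 in pool pair 2. Other kept probes of cs, idh3a, fh and ogdha had arrays on the opposite side of 0. None of the 7 passed the limma test over all genes (adjusted p from 0.751 to 0.789). Above 0 on all 6 arrays were 3 of the 7 enzymes, against 11.8% of all genes, and below 0 on all 6 were 2 of the 7, against 8.37%. The 6 arrays hold only 2 pool pairs, and the difference between these shares was not tested. The mean over both pairs lay below 0 for 4 of the 7 enzymes, against 42.8% of all genes, and the median was -0.19, against 0.04 over all genes. The median rests on the choice of probe and on pool pair 3: it was 0.051 with the kept probes of each gene averaged and 0.03 in pool pair 2 alone.

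**Figure D1:**
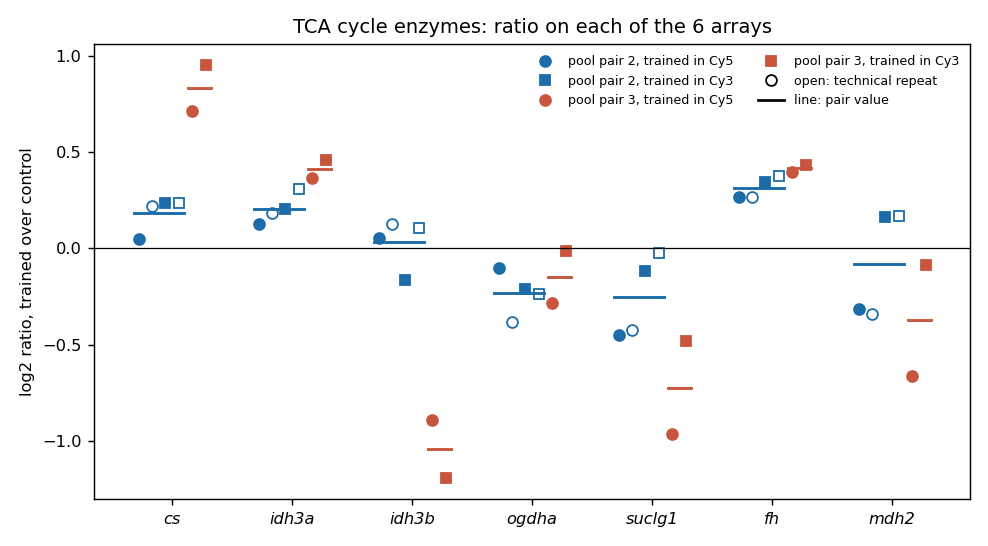
Log2 ratio of trained over control (vertical axis) for the brightest kept probe of each of the 7 TCA cycle enzymes on each of the 6 arrays. Blue marks pool pair 2 and red pool pair 3, circles mark arrays with trained RNA in Cy5 and squares arrays with trained RNA in Cy3, open symbols are technical repeats and lines are the pair values. All points of cs, idh3a and fh lie above 0 and all points of ogdha and suclg1 below 0.

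Citrate synthase, encoded by cs, joins acetyl-CoA to oxaloacetate and opens the cycle, and its activity is widely used as a measure of mitochondrial content in muscle. The log2 intensity of cs was 12.59 in T2 and 13.03 in T3, against 12.41 in C2 and 12.20 in C3. Both trained pools lay above both control pools, and T3 was the highest pool. The ratio was 0.19 in pool pair 2 (1.14-fold) and 0.84 in pool pair 3 (1.79-fold). The mean was 0.51 ± 0.22 (SE, n = 2 pool pairs), with a 95% interval from -0.05 to 1.07 and a limma adjusted p of 0.751. Among all genes tested the ratio of cs stood at the percentile 90.4 in pool pair 2 and 92.7 in pool pair 3. The mean was 0.28 with median centring in place of loess. It was 0.24 with both kept probes averaged, of which the other is dim (log2 intensity 6.59 in T2).

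The NAD-dependent isocitrate dehydrogenase of mitochondria is, as known from mammals, built from alpha, beta and gamma subunits, of which idh3a and idh3b encode the catalytic alpha and the regulatory beta subunit. For idh3a the log2 intensity was 9.99 in T2 and 10.28 in T3, against 9.78 in C2 and 9.86 in C3. Trained pools again lay above control pools. The ratio of idh3a was 0.21 in pool pair 2 and 0.42 in pool pair 3, and the mean was 0.16 with median centring. The mean of idh3a was 0.31 ± 0.17, with a 95% interval from -0.13 to 0.75 (limma adjusted p = 0.751).

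For idh3b the log2 intensity was 9.01 in T2 and 8.52 in T3, against 8.98 in C2 and 9.56 in C3. The pools of pair 2 were nearly level, whereas T3 was the lowest and C3 the highest of the 4 pools. The ratio of idh3b was 0.03 in pool pair 2 and -1.04 in pool pair 3, where it was 2.06-fold lower in trained fins and stood at the percentile 1.56 of all genes. The mean was -0.51 ± 0.29, with a 95% interval from -1.24 to 0.23 (limma adjusted p = 0.751). It rests on pool pair 3, and it was -0.24 with the local backgrounds as deposited.

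The ratio of idh3a exceeded that of idh3b on 6 of 6 arrays, by 0.06 to 1.66. The difference of the log2 ratios was 0.18 in pool pair 2 and 1.46 in pool pair 3. It holds for the brightest probes: the dimmest idh3a probe and the other idh3b probe both had -0.56 in pool pair 3. Likewise the brightest probes of cs, idh3a and fh exceeded those of ogdha and suclg1 on all 6 arrays, since they lay on opposite sides of 0. The 6 arrays hold only 2 pool pairs, and how often pairs among all genes differ in 1 direction on all 6 arrays was not counted. The difference between the subunits was not tested.

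**Figure D2:**
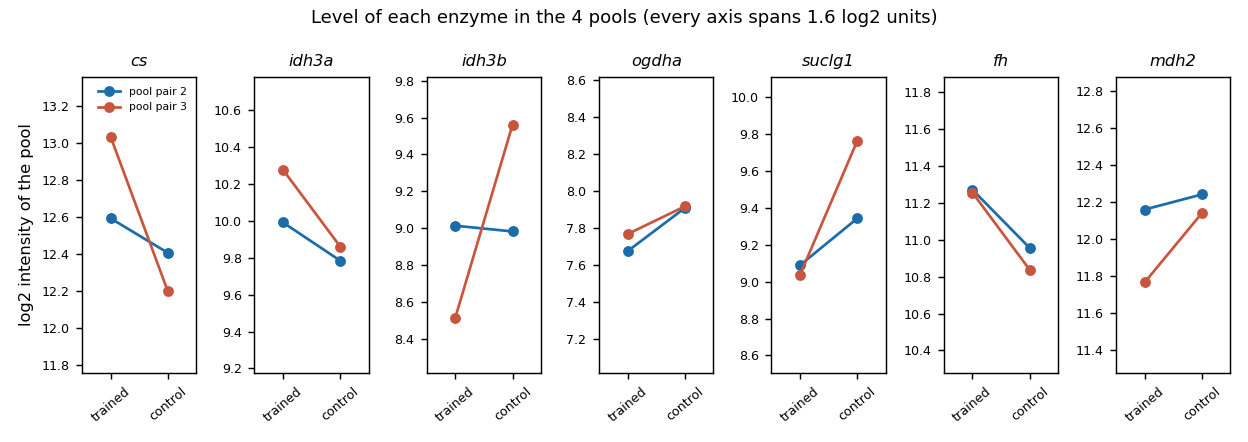
Log2 intensity of each of the 7 enzymes in the 4 pools, with trained pools on the left and control pools on the right of each panel and a line joining the pools hybridised together (blue pool pair 2, red pool pair 3). Every vertical axis spans the same distance, so slopes can be compared between panels, while heights belong to different probes and cannot. The steepest lines are those of pool pair 3 for idh3b, cs and suclg1.

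The gene ogdha encodes the E1 component of the oxoglutarate dehydrogenase complex, which turns 2-oxoglutarate into succinyl-CoA. Its log2 intensity was 7.67 in T2 and 7.77 in T3, against 7.91 in C2 and 7.92 in C3. Trained pools lay below control pools by a narrow margin, with ratios of -0.23 in pool pair 2 and -0.15 in pool pair 3. The mean was -0.19 ± 0.17, with a 95% interval from -0.62 to 0.23 (limma adjusted p = 0.789). With the 3 kept probes averaged the sign turned, to 0.051.

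Succinyl-CoA ligase makes succinate and a nucleoside triphosphate from succinyl-CoA, and suclg1 encodes its alpha subunit, which pairs with the product of either suclg2 or sucla2. The log2 intensity of suclg1 was 9.09 in T2 and 9.04 in T3, against 9.34 in C2 and 9.76 in C3. The trained pools were close together and below both control pools. The ratio was -0.25 in pool pair 2 and -0.72 in pool pair 3, at the percentiles 3.21 and 4.88 of all genes. The mean was -0.49 ± 0.20, with a 95% interval from -0.99 to 0.01 (limma adjusted p = 0.751), and its unadjusted p of 0.0530 was the lowest of the 7. A single probe read the gene. The ratio with trained RNA in Cy5 minus that with trained RNA in Cy3 was -0.37 in pool pair 2 and -0.48 in pool pair 3, and the mean weights both orientations equally.

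Fumarase, encoded by fh, adds water to fumarate to give malate. Its log2 intensity was 11.27 in T2 and 11.26 in T3, against 10.96 in C2 and 10.84 in C3. Trained pools lay above control pools with almost no spread between T2 and T3. The ratio was 0.31 in pool pair 2 and 0.42 in pool pair 3, at the percentiles 97.3 and 79.9. On the 6 arrays the ratio ran from 0.27 to 0.43, the narrowest range among the brightest probes of the 7 enzymes. The mean was 0.37 ± 0.17, with a 95% interval from -0.06 to 0.79 (limma adjusted p = 0.751), and it was 0.18 with median centring. These values are of the brightest probe, with a mean log2 intensity of 11.09. The other fh probe, at 10.76, ran from -0.12 to 0.48 and was below 0 in pool pair 2 where trained RNA carried Cy3.

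Mitochondrial malate dehydrogenase, encoded by mdh2, closes the cycle by oxidising malate to oxaloacetate. The log2 intensity of its brightest probe was 12.16 in T2 and 11.77 in T3, against 12.24 in C2 and 12.14 in C3. For this probe the groups overlapped, since T2 lay just above C3. Trained pools lay below control pools for the next brightest probe (9.78 and 9.06, against 10.01 and 10.21). They also did for the probes with 7.64 and 7.50, against 7.85 and 8.51, and with 7.27 and 7.19, against 7.43 and 8.01. For the remaining probe T2 (7.833) lay just above C2 (7.829). The ratio of the brightest probe was -0.08 in pool pair 2 and -0.37 in pool pair 3. Its mean was -0.23 ± 0.18, with a 95% interval from -0.68 to 0.22 (limma adjusted p = 0.778). The brightest probe of mdh2 had the widest dye gap of the 7, with ratios of -0.32 and -0.34 in pair 2 where trained RNA carried Cy5 and of 0.16 and 0.17 where it carried Cy3. The mean was -0.45 with median centring, -0.48 with its 5 probes averaged and -0.09 on the arrays of slide 2 alone, where pair 3 has 1 orientation.

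By the brightest probe of each of the 7 enzymes, trained and control pools did not overlap for 5, with 3 above and 2 below. The shares of all genes were 37%, with 23% above and 14% below. Ratios were larger in size in pool pair 3 for 6 of the 7, the exception being ogdha. Ratios of all genes were more spread there too (SD 0.53, against 0.15 in pool pair 2). The share of all genes with a larger ratio in pool pair 3 was not counted. In pool pair 3 idh3b and suclg1 were at least 1.5-fold lower and cs at least 1.5-fold higher, where 7.72% and 13.2% of all genes reached these sizes. In pool pair 2 none of the 7 reached 1.5-fold, as against 0.323% of all genes lower and 0.317% higher. Below 0 were 3 of the 7 in pool pair 2 and 4 of the 7 in pool pair 3, against 43.4% and 44.7% of all genes. The enzymes spanned 0.57 log2 units in pool pair 2 and 1.88 in pool pair 3, where the SD over all genes was 3.47 times that of pool pair 2.

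**Figure D3:**
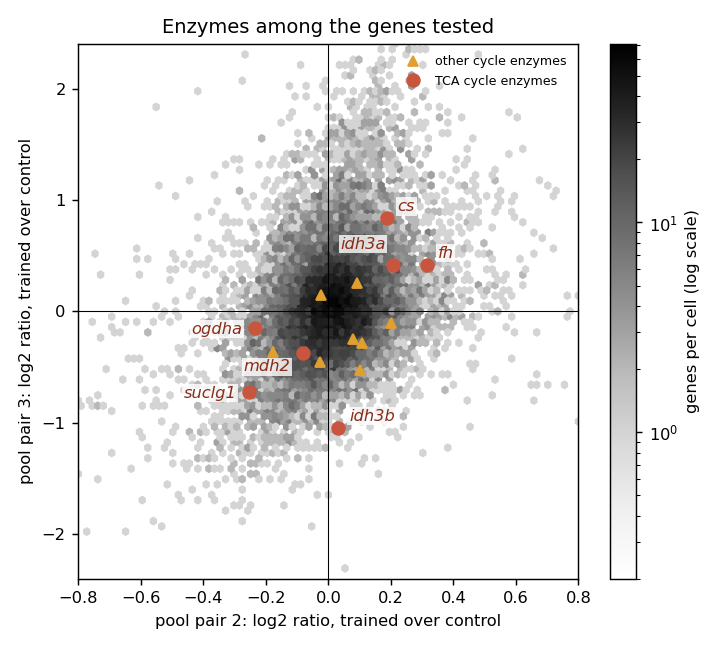
Log2 ratio of trained over control in pool pair 2 (horizontal axis) and pool pair 3 (vertical axis) for the genes tested, as grey cells shaded by the number of genes on a log scale, with 38 genes outside the axes. Red circles are the 7 TCA cycle enzymes and yellow triangles 8 other cycle enzymes. The red circles lie in the upper right (cs, idh3a, fh) and lower left (ogdha, suclg1, mdh2) quadrants, with idh3b at 0.03 and -1.04.

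The probes of a gene did not always give 1 direction. Of the 6 enzymes with several kept probes, 3 had probes whose means lay on both sides of 0, namely cs, idh3a and ogdha. Among all genes with several kept probes the share was 38.2%, or 2120 of 5557. The higher ratio of cs came from its brightest probe. Its other kept probe, with a log2 intensity of 6.59 in T2 and 6.51 in T3, against 6.63 in C2 and 6.55 in C3, had ratios of -0.04 in both pairs, and the probe that was not kept had -0.16 and -0.13.

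For idh3a the 3 brighter probes had ratios of 0.21, 0.19 and 0.10 in pool pair 2 and of 0.42, 0.28 and 0.18 in pool pair 3. Its dimmest probe went the other way, at -0.12 and -0.56. With the 4 probes averaged the mean of idh3a was 0.09. For ogdha the brightest probe stood alone below 0, although its mean log2 intensity of 7.81 was close to the 7.76 of the next. The other ogdha probes had 0.04 and 0.05 in pool pair 2 and 0.27 and 0.32 in pool pair 3.

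The probes of the other genes pointed 1 way in pool pair 3. Both idh3b probes were below 0 there, at -1.04 and -0.56. All 5 probes of mdh2 were below 0 in pool pair 3, and the brightest probe had the smallest ratio: -0.37, against -1.14, -1.01, -0.78 and -0.81 for the other probes in order of brightness. In pool pair 2 these 4 probes of mdh2 had -0.24, -0.21, 0.00 and -0.16. The fh probes had 0.31 and 0.08 in pool pair 2 and 0.42 and 0.40 in pool pair 3. Over all 19 kept probes of the 7 enzymes, 9 were below 0 and 8 above 0 in both pool pairs.

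**Figure D4:**
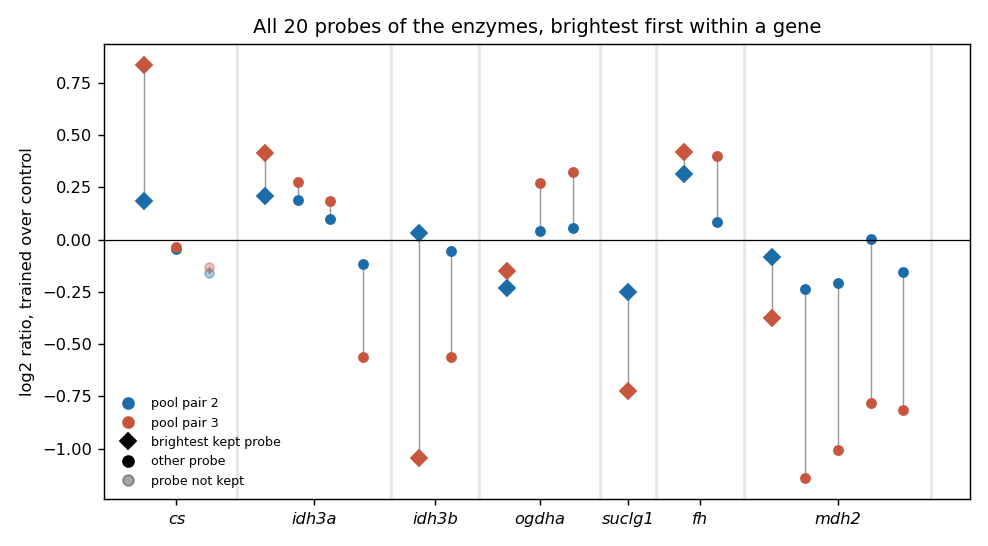
Log2 ratio of trained over control for each of the 20 probes that read the 7 enzymes, in pool pair 2 (blue) and pool pair 3 (red), with the probes of a gene ordered from bright to dim. Diamonds are the brightest kept probes, circles the other probes and pale circles the probe that was not kept. All mdh2 probes lie below 0 in pool pair 3, while the probes of cs, idh3a and ogdha lie on both sides.

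Of 13 further genes listed for the enzymes of the cycle, 8 were tested and 0 passed. Their median was 0.09 in pool pair 2 and -0.27 in pool pair 3, where 6 of the 8 lay below 0, against 44.7% of all genes. The NADP-dependent isocitrate dehydrogenase gene idh2 had 0.09 in pool pair 2 and 0.25 in pool pair 3 (mean 0.17 ± 0.17). The gene dlst, which encodes the E2 component that works with the ogdha product, had 0.08 in pool pair 2 and -0.25 in pool pair 3 (mean -0.09 ± 0.18). The ligase partner sucla2 had -0.03 in pool pair 2 and -0.45 in pool pair 3 (mean -0.24 ± 0.19), where suclg1 was also below 0. In pool pair 2 the sign of sucla2 turned with the dye. It had 0.16 and 0.07 where trained RNA carried Cy5 and -0.20 and -0.14 where it carried Cy3. The succinate dehydrogenase subunits are also complex II of the respiratory chain. Of these, sdha had 0.11 in pool pair 2 and -0.28 in pool pair 3 (mean -0.09 ± 0.19) and sdhb had -0.02 and 0.15 (mean 0.06 ± 0.17). The sign of sdhb turned with the orientation in both pairs. In pool pair 2 it had 0.19 and 0.18 with trained RNA in Cy5 and -0.26 and -0.20 in Cy3. In pool pair 3 it had 0.34 and -0.04. The subunit gene sdhc had -0.18 and -0.37 (mean -0.27 ± 0.17). Only sdhc of these 8 was below 0 on all 6 arrays. The assembly factor gene sdhaf2 had 0.10 and -0.52 (mean -0.21 ± 0.22).

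Pyruvate enters the cycle through the pyruvate dehydrogenase complex. Of 17 listed genes of that step, 8 were tested, 0 passed, and the median was 0.02 in pool pair 2 and -0.06 in pool pair 3. The tested genes include kinases and a phosphatase that regulate the complex, so the median is not that of its subunits alone. The E1 beta gene of the complex, pdhb, had 0.03 in pool pair 2 and -0.99 in pool pair 3, whereas the E1 alpha gene pdha1a had 0.16 and 0.04. The E2 gene dlat had -0.14 and -0.78 and the binding protein gene pdhx -0.08 and -0.15.

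Cytosolic counterparts of the cycle enzymes, listed together with related cytosolic enzymes, were tested for 5 of 9 listed genes, and 0 passed. The cytosolic malate dehydrogenase gene mdh1aa lay lowest, at -0.10 in pool pair 2 and -1.32 in pool pair 3, and its log2 intensity was 11.61 in T2 and 10.78 in T3, against 11.71 in C2 and 12.10 in C3. Its paralogue mdh1ab had 0.09 and 0.02. The cytosolic isocitrate dehydrogenase gene idh1 had -0.30 and -0.08, and the cytosolic aspartate aminotransferase gene got1 -0.09 and -0.72.

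Genes that refill the cycle or carry its intermediates were tested for 11 of 17, and 0 passed. Their median was 0.12 in pool pair 2 and -0.09 in pool pair 3, where 9 of the 11 lay below 0, against 44.7% of all genes. The mitochondrial aspartate aminotransferase genes differed from each other, with got2a at 0.18 and 0.32 and got2b at -0.07 and -0.82. The oxoglutarate carrier gene slc25a11 had 0.04 and -0.99.

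General mitochondrial genes lay lower as a list than the cycle enzymes did. Of 13 tested members 12 had a mean below 0 and 10 were below 0 in both pool pairs, against 42.8% and 24.7% of all genes. The medians were -0.06 in pool pair 2 and -0.82 in pool pair 3. Of the 7 TCA cycle enzymes, 3 were below 0 and 3 above 0 in both pool pairs, against 24.7% and 36.6% of all genes. The import receptor gene tomm20b had -0.87 ± 0.28, the chaperonin gene hspd1 -0.59 ± 0.19 and the outer membrane channel gene vdac1 -0.58 ± 0.20. None passed the limma test over all genes (adjusted p = 0.751 for each of these 3). The channel gene vdac3 went the other way, at 0.07 and 0.77. Whether the cycle enzymes and this list differ was not tested.

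**Figure D5:**
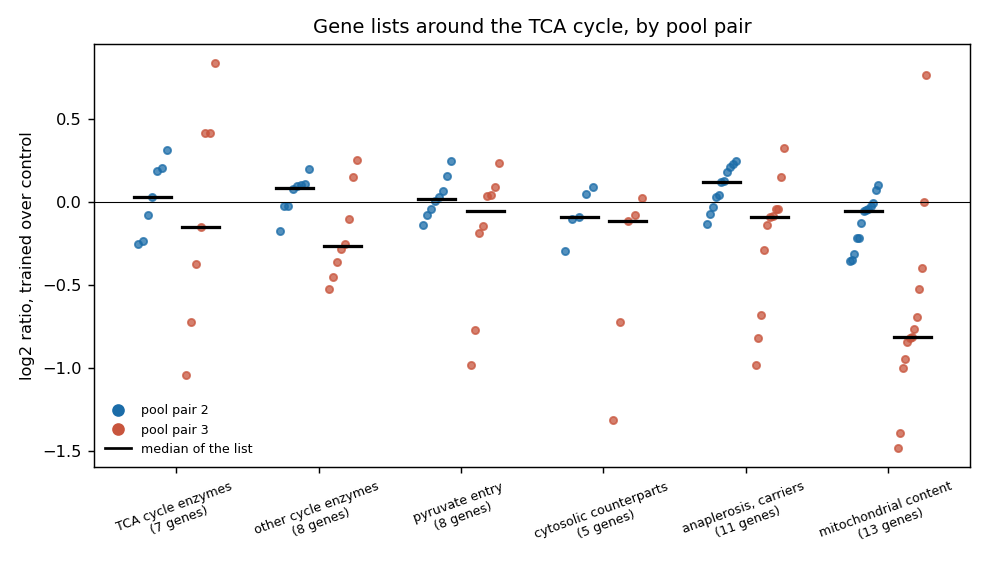
Log2 ratio of trained over control for each tested gene of 6 lists (points) in pool pair 2 (blue) and pool pair 3 (red), with the list median as a black line. The TCA cycle enzymes are spread on both sides of 0 in both pairs, whereas the mitochondrial content list has a median of -0.82 in pool pair 3.

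Markers of cell types in the fin also differed between the pools. Of all genes, 42.8% had a mean below 0, while 43.4% lay below 0 in pool pair 2 and 44.7% in pool pair 3. In pool pair 3, 7.72% of all genes were at least 1.5-fold lower and 13.2% at least 1.5-fold higher. Fast muscle markers, whose cells are rich in contractile protein, had a summed log2 level over 16 genes of 18.69 in T2 and 18.56 in T3, against 18.26 in C2 and 18.17 in C3. Gene by gene they went both ways, with 9 of 16 means above 0, and the pool pairs differed. In pool pair 2 the median was 0.31 and 3 of 16 lay below 0. In pool pair 3 the median was -0.25, 10 of 16 lay below 0 and 6 were at least 1.5-fold lower. The sum and the median therefore differ in sign in pool pair 3. Slow muscle markers, whose cells are rich in mitochondria, had 16.79 and 16.41, against 16.88 and 16.68 over 10 genes, with 10 of 10 below 0 in either pool pair. Epidermal markers had 18.67 and 18.88, against 18.39 and 18.35 over 13 genes, with 11 of 13 means above 0. Below 0 were 1 of 13 in pool pair 2 and 4 of 13 in pool pair 3. In pool pair 3, 2 epidermal markers were at least 1.5-fold lower and 4 at least 1.5-fold higher. Red blood cell markers had 12.58 and 11.45, against 12.47 and 12.77 over 4 genes, with 4 of 4 below 0 in pool pair 3 and 0 of 4 in pool pair 2. The embryonic alpha globin gene hbae1.1 had 0.06 in pool pair 2 and -2.31 in pool pair 3. Notochord markers had 13.99 and 14.00, against 14.17 and 14.56 over 10 genes, but 5 of 10 lay above 0 in pool pair 3, where the median was 0.018, and 2 of 10 in pool pair 2. Their sum leans on the keratin gene krt8, the brightest of the 10 in both control pools (12.80 in C2 and 13.26 in C3). Its ratios were -0.33 in pool pair 2 and -1.05 in pool pair 3. Cell cycle genes had 13.37 and 13.71, against 13.49 and 14.19 over 17 genes, with 15 of 17 means below 0. The part of these differences in the ratios of the cycle enzymes was not tested.

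The genes most like the median profile of the 7 enzymes over the 6 arrays were syncripl, slc27a6, ddx28, arhgef16 and gcnt4a, taken from 8538 tested genes with a symbol that is not a clone or placeholder name. Their Euclidean distances from the profile were 0.08 to 0.14 log2 units, against a median of 0.69 over these genes. The distances of the 7 enzymes themselves were larger, from 0.71 for mdh2 to 1.40 for cs. The median profile, which ran from -0.29 to 0.17, therefore describes none of the 7 closely.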

How the data were processed

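Trained and control RNA was labelled with Cy3 and Cy5 (100 ng per labelling, per the labels' protocols). Feature Extraction 10.5.1.1 read the scans, per the file headers. The authors' deposited scanner output holds each spot's median intensity and local background intensity, a processed intensity and, per the file headers, the Cy5 over Cy3 ratio as log10. The authors' series matrix served as an alternative.

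Median signals were background-corrected with normexp (offset 50) in limma 3.58.1 (R 4.3.3, with the data.table package, version 1.17.8). Local backgrounds over 10 median absolute deviations from the array median were first set to that median. Loess within arrays gave control and flagged spots weight 0, and flagged spots were left out. From the deposited intensities, log2 ratios of trained over control were averaged within each orientation and then over both. Pool levels come from separate channels after Aquantile scaling. RefSeq accessions were named through the RefSeq table of GRCz12tu (25173 of 43603 probes), and no coordinates were used. A gene is its brightest kept probe. Limma tested the 2 pair values against 0, two-sided, with Benjamini-Hochberg adjustment over 15774 genes, 1 residual degree of freedom and a prior of 4.14. A run on simulated data checked only that planted mean ratios came back and that dye effects averaged out.

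The enzymes, the other lists and the tests were chosen with earlier results of these data known. Named are all measured enzymes, all tested genes of the list of other cycle enzymes except 1 that is not reported here, up to 3 genes per remaining list with the smallest unadjusted p, and the 5 genes nearest to the median profile. The genes pdha1a, vdac3 and mdh1ab were added after their values were seen.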

Additional observations from a re-analysis of the deposited data

How the results depend on the processing

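Under 16 alternatives cs, idh3a and fh stayed above 0 and suclg1 and mdh2 below 0, and in the 14 alternatives with a test none of the 7 enzymes passed (adjusted p from 0.0832 to 0.939). Dropping the pairing, or adding an intensity trend and robust prior, cannot change a ratio. Without the filter on dim probes the 7 ratios were also those of the main fit. Leaving out a pool pair gives the single pair values. With kept probes averaged, ogdha turned to 0.051 and with it the median of the enzymes, to 0.051. In pool pair 2 alone idh3b was 0.031, so that over the single pairs idh3b ran from -1.04 to 0.031 and the median of the enzymes from -0.15 to 0.031. Between 3 and 4 of the 7 enzymes lay below 0 in every alternative. The median of all genes was -0.015 with median centring. Genes past the threshold numbered 9 with a random block for the pool pair, 7 with an intensity trend and robust prior, and 60 with the slide as a fixed term, of which the first and last count arrays that share RNA. Without the pairing (4 pools, no replicate block) 0 genes passed, and the median of the enzymes was -0.19 because the ratios stay as they were. Within slide 1 that median was -0.22 and within slide 2 -0.09. Signal over background limits the cs probe that was not kept, which was well above background on 1 of 6 arrays in the trained channel and 2 of 6 in the control channel.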

Other observations

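Across genes, which are not independent replicates, the trained over control ratios of the technical repeats of pool pair 2 correlated at 0.86 with trained RNA in Cy5 and at 0.78 with trained RNA in Cy3. Between arrays of pool pair 2 with opposite dyes the correlation was 0.08 to 0.16, although these arrays share their RNA. The opposite orientations of pool pair 3 correlated at 0.89. The median size of the gap between orientations was 0.15 log2 units in either pair, next to an SD of ratios across genes of 0.15 in pool pair 2 and 0.53 in pool pair 3. In pool pair 3 the orientations lay on different slides, so its gaps are those of dye and slide together. Among the enzymes, mdh2 and suclg1 had gaps above that median in both pairs, and cs, idh3b and ogdha in pool pair 3.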
